A study of Nicotiana tabacum with 18 samples.

Results

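The 6 tobacco genes described here encode 4 enzymes of the tricarboxylic acid cycle: 1 citrate synthase gene (CS), 2 aconitase genes (ACO), 1 2-oxoglutarate dehydrogenase gene (OGDH) and 2 genes of the iron-sulfur subunit of succinate dehydrogenase (SDHB). They are 6 of the 69500 genes of the expression table and 6 of the 21 genes in the study's heat map of this cycle, and all 6 had values. The study put them in that heat map because it placed them below both parents in the hybrid Va116×GDH94. Their levels in that hybrid, and the counts of calls printed there, are therefore only a description and no independent evidence of a decrease, and no p-value is given for them. The values of Va116 and GDH94 entered that choice too, so tests that include these parents are not independent of it. The hybrid K326×GDH88 and its parents played no part in that choice, so the members were tested there.

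Leaf RNA was sequenced 45 days after transplanting from 6 genotypes of cultivated tobacco (Nicotiana tabacum), with 3 libraries each and 18 in all. Va116×GDH94 is the hybrid of Va116 and GDH94, and K326×GDH88 is the hybrid of K326 and GDH88. The plants carried no transgene or treatment in the labels, and the leaves of several plants of a field plot were mixed for a sample. Values are FPKM, fragments scaled to transcript length and to the total of the library, a level per length that allows genes to be compared within a library.

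In the mitochondrial matrix, CS joins acetyl-CoA to oxaloacetate to form citrate, and ACO turns citrate into isocitrate. OGDH is the first component of the enzyme complex that makes succinyl-CoA from 2-oxoglutarate. SDHB carries the iron-sulfur clusters of succinate dehydrogenase, which oxidises succinate and passes its electrons to the respiratory chain as complex II. In leaves the cycle feeds respiration and also supplies carbon skeletons for nitrogen assimilation. Tobacco is an allotetraploid with 2 parental genomes, so an enzyme is often encoded by similar gene copies, and reads of such copies could have been divided between them in a way that was not tested.

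The OGDH gene and 1 SDHB gene were also assayed by qRT-PCR in the study. It reported the respiration genes assayed this way as down-regulated and overdominant, below both parents, in Va116×GDH94. Their primers are shown with the gene that the study lists for each pair. The NtSDHB pair is listed for Nitab4.5_0002158g0230 and the NtOGDH pair for Nitab4.5_0009327g0010. The primers were not compared with gene sequences, so whether they distinguish the SDHB copies was not tested.
NtSDHB forward: tcttatcttggtcccgctgc
NtSDHB reverse: gtcaaggcgctcctgagtat
NtOGDH forward: acatgcaaaaatggagaatggtgtg
NtOGDH reverse: ctcagctgttgcgtccaactt
They are written 5′ to 3′, with 20 bases in each NtSDHB primer and 25 and 21 bases in the NtOGDH primers. The other SDHB gene, Nitab4.5_0001031g0210, had no primers in that list, and the SDHB copy with primers is the one whose levels differed most from those of the other members below.

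Several facts of the libraries bear on what follows. The FPKM of a library summed to 972830 to 1062588 in K326×GDH88, 887628 to 936804 in K326 and 941930 to 946270 in GDH88. The sums were 984296 to 1014325 in Va116×GDH94, 945893 to 953051 in Va116 and 910305 to 914581 in GDH94. The replicates of the hybrids and of K326 were the most variable, with a median SD over genes of 0.15 in K326×GDH88, 0.13 in Va116×GDH94 and 0.13 in K326 on the log2 scale, against 0.08 in each of the other parents. No 2 libraries held identical values, and libraries of a genotype correlated at r = 0.9885 to 0.9947 across genes, which are not independent replicates. NtLhcb1 and NtLhcb2, the light-harvesting genes used to check the labelled leaf tissue, were detected in all libraries, at 9.36 to 75.3 FPKM and 25.6 to 89.9 FPKM.

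The levels of the members fell into 3 ranges. CS and both ACO genes were among the more highly expressed genes, at percentiles 90.2, 89.3 and 88.6 of the genes with a value above 0, with medians over the 18 libraries of 30.6, 28.0 and 26.3 FPKM. OGDH lay at percentile 72.0 with a median of 9.62 FPKM. The SDHB genes were lowest, with medians of 4.53 FPKM for Nitab4.5_0002158g0230 and 2.48 FPKM for Nitab4.5_0001031g0210. K326×GDH88 was the genotype with the lowest mean for 5 of the 6 genes, all except SDHB Nitab4.5_0002158g0230. The highest genotype mean was 1.48 to 2.09 times the lowest for these 5 genes and 2.75 times for Nitab4.5_0002158g0230. Va116×GDH94 had the next lowest mean for these 5 genes. The libraries of the hybrids overlapped for both ACO genes, OGDH and SDHB Nitab4.5_0001031g0210, but not for CS. All genes had a median of 0.18 for Va116×GDH94 minus K326×GDH88 on the log2 scale.

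**Figure D1:**
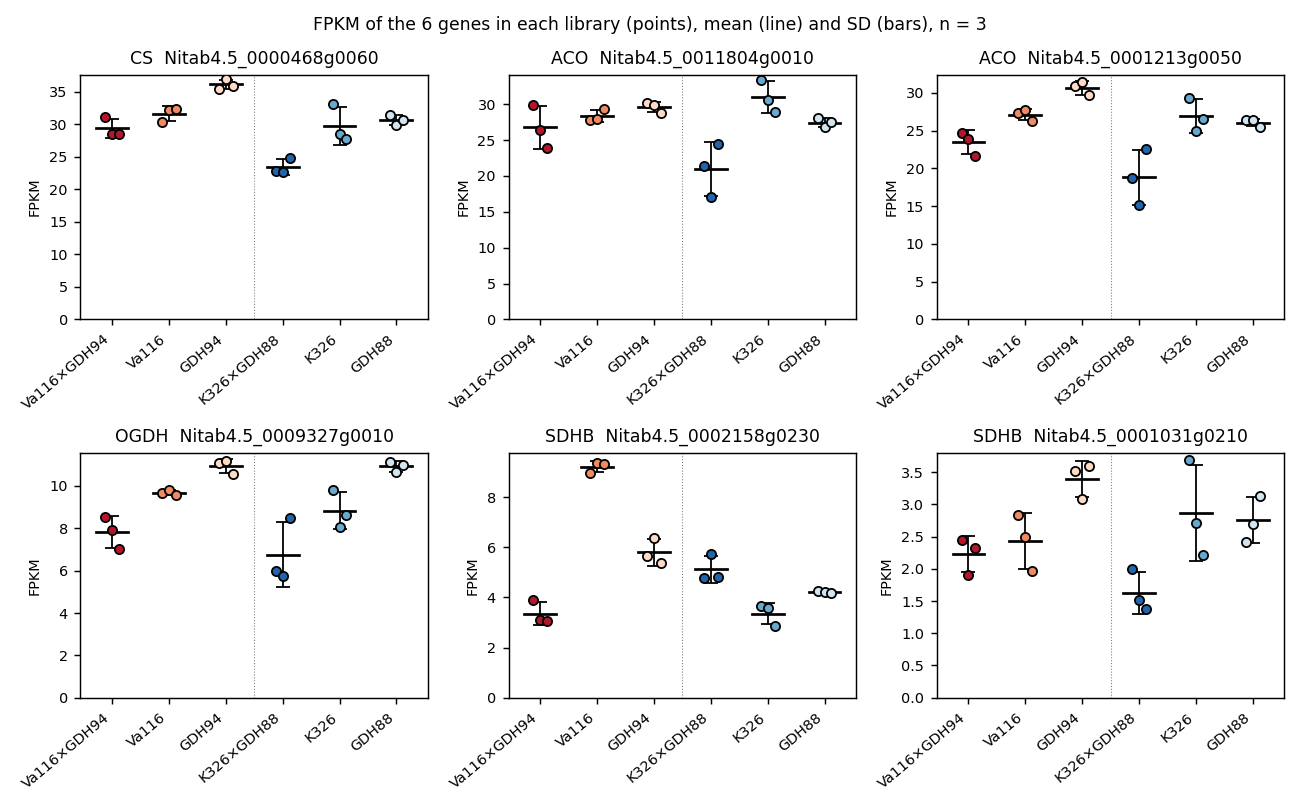
FPKM of the 6 genes (vertical axes, from 0) in each library of the 6 genotypes (horizontal axes), with points for libraries, lines for means and bars for the SD of 3 libraries. K326×GDH88 has the lowest mean in every panel except that of SDHB Nitab4.5_0002158g0230, where Va116 stands highest at 9.22 FPKM. Points of K326×GDH88 and Va116×GDH94 overlap for both ACO genes, OGDH and SDHB Nitab4.5_0001031g0210.

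In leaves of K326×GDH88, 5 of the 6 genes fell below the mid-parent value, the mean of K326 and GDH88 on the log2(FPKM + 1) scale, and the sixth rose above it. The 5 that fell were CS, both ACO genes, OGDH and SDHB Nitab4.5_0001031g0210, and their mean FPKM in the hybrid differed from the mean of its parents by −22.5% to −42.1%. SDHB Nitab4.5_0002158g0230 was 35.1% higher. A gene was called at a Benjamini-Hochberg adjusted p under 0.05 over the 35438 genes tested with limma. Of all genes tested, 23.8% were called below and 10.9% above the mid-parent value in this hybrid. The median of the members was −0.48 on the log2 scale, while that of all genes was −0.10.

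Citrate synthase, Nitab4.5_0000468g0060, had 22.8, 22.7 and 24.9 FPKM in K326×GDH88, against 33.1, 28.6 and 27.7 FPKM in K326 and 31.5, 29.97 and 30.8 FPKM in GDH88. All 3 hybrid libraries lay below all 6 parent libraries. The log2 difference was −0.35 from the mid-parent value (SE 0.07, limma adjusted p = 0.00528), −0.33 from K326 (adjusted p = 0.0174) and −0.38 from GDH88 (adjusted p = 0.00665). Without K326 replicate 1 the difference from K326 was −0.25 and just missed the threshold (adjusted p = 0.0535), as it did with only the compared genotypes in the fit (adjusted p = 0.0582).

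The first aconitase gene, Nitab4.5_0011804g0010, had 21.3, 17.0 and 24.5 FPKM in K326×GDH88, against 33.3, 30.6 and 29.0 FPKM in K326 and 28.0, 26.8 and 27.5 FPKM in GDH88. The second, Nitab4.5_0001213g0050, had 18.7, 15.2 and 22.5 FPKM in K326×GDH88, against 29.3, 24.9 and 26.6 FPKM in K326 and 26.4, 26.4 and 25.5 FPKM in GDH88. For both genes the hybrid libraries lay below every parent library, and in the hybrid replicate 2 was lowest and replicate 3 highest for both. The log2 difference from the mid-parent value was −0.47 for the first gene (SE 0.10, limma adjusted p = 0.00639) and −0.49 for the second (SE 0.10, adjusted p = 0.00696). Against single parents the first gene differed by −0.55 from K326 (adjusted p = 0.00787) and −0.39 from GDH88 (adjusted p = 0.0237), and the second by −0.51 (adjusted p = 0.0144) and −0.47 (adjusted p = 0.0139). The first gene's difference from GDH88 lost its call without K326×GDH88 replicate 2 (adjusted p = 0.0533) or without any 1 of the 3 GDH88 libraries (adjusted p from 0.0549 to 0.0725), and the second gene's difference from K326 lost it without K326 replicate 1 (adjusted p = 0.0568). With median-ratio scaling the first gene differed from GDH88 by −0.23 and was not called (limma adjusted p = 0.0975).

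OGDH, Nitab4.5_0009327g0010, had 5.97, 5.75 and 8.51 FPKM in K326×GDH88, against 9.81, 8.08 and 8.61 FPKM in K326 and 11.1, 10.7 and 11.0 FPKM in GDH88. Hybrid replicate 3 lay within the range of K326, whereas all hybrid libraries lay below GDH88. The gene fell below the mid-parent value by 0.50 on the log2 scale (SE 0.11, limma adjusted p = 0.00786) and below GDH88 by 0.64 (adjusted p = 0.00479). Its difference from K326 was −0.36 with a 95% interval of −0.64 to −0.08 and missed the threshold (adjusted p = 0.064), but passed it without hybrid replicate 3 (adjusted p = 0.00657).

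The FPKM values of the SDHB copies differed from the parents in opposite directions. Nitab4.5_0001031g0210 had 1.99, 1.52 and 1.37 FPKM in K326×GDH88, against 3.68, 2.71 and 2.21 FPKM in K326 and 2.42, 2.70 and 3.13 FPKM in GDH88, with no overlap between the hybrid and either parent. It fell by 0.53 below the mid-parent value on the log2 scale (SE 0.13, limma adjusted p = 0.0133), by 0.55 below K326 (adjusted p = 0.029) and by 0.52 below GDH88 (adjusted p = 0.0255). This gene had the lowest FPKM of the members, and its calls against single parents depended on several libraries and on the processing. The call against K326 was lost without K326 replicate 1 (adjusted p = 0.0972), K326×GDH88 replicate 2 (0.0732) or replicate 3 (0.0648). It was also lost with quantile normalization (0.0531), no filter on low values (0.0546) or only the compared genotypes in the fit (0.0632). The call against GDH88 was lost without GDH88 replicate 2 (adjusted p = 0.0632) or 3 (0.0936), or without hybrid replicate 2 (0.0672) or 3 (0.0648). It was also lost with median-ratio scaling (0.0571) or quantile normalization (0.0756).

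Nitab4.5_0002158g0230, the SDHB copy with qRT-PCR primers, had 4.79, 5.75 and 4.81 FPKM in K326×GDH88, against 3.64, 3.56 and 2.87 FPKM in K326 and 4.26, 4.21 and 4.19 FPKM in GDH88. No parent library reached the lowest hybrid library, a pattern that 7.23% of all genes tested showed. The gene rose by 0.36 above the mid-parent value on the log2 scale (SE 0.09, limma adjusted p = 0.014) and by 0.49 above K326 (adjusted p = 0.00958). The difference from GDH88 was 0.23 with a 95% interval of −0.01 to 0.46 (adjusted p = 0.117), and it passed the threshold once libraries were scaled by their median ratio (0.36, adjusted p = 0.0262) or quantile normalized (0.38, adjusted p = 0.022), but was 0.14 with equal totals (adjusted p = 0.323) and 0.15 without hybrid replicate 2 (adjusted p = 0.314). The rise above the mid-parent value was called under all 9 other settings of the analysis and without 8 of the 9 libraries in turn; without hybrid replicate 2 it was 0.28 (adjusted p = 0.0621).

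Counted over the members, 4 of 6 were called below K326 (14.1% of all genes), 5 of 6 below GDH88 (25.1%) and 4 of 6 below both parents (9.01%), and 1 of 6 was called above K326 (9.49%). The 4 genes below both parents were CS, both ACO genes and SDHB Nitab4.5_0001031g0210, and these were also the 4 whose hybrid libraries all lay below all parent libraries (16.8% of all genes). The count below K326 was 1 without K326 replicate 1. The count below GDH88 was 3 without K326×GDH88 replicate 2, GDH88 replicate 2 or GDH88 replicate 3. The count below both parents was 1 without K326 replicate 1 and 2 without each of these other 3 libraries. With median-ratio scaling, which brought the median difference of all genes from the mid-parent value to 0.01, 3 genes were called below GDH88 and 2 below both parents. The count of 5 below the mid-parent value was 5 in all 9 leave-one-out fits and under each alternative of scaling, filter, pseudocount and block.

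**Figure D2:**
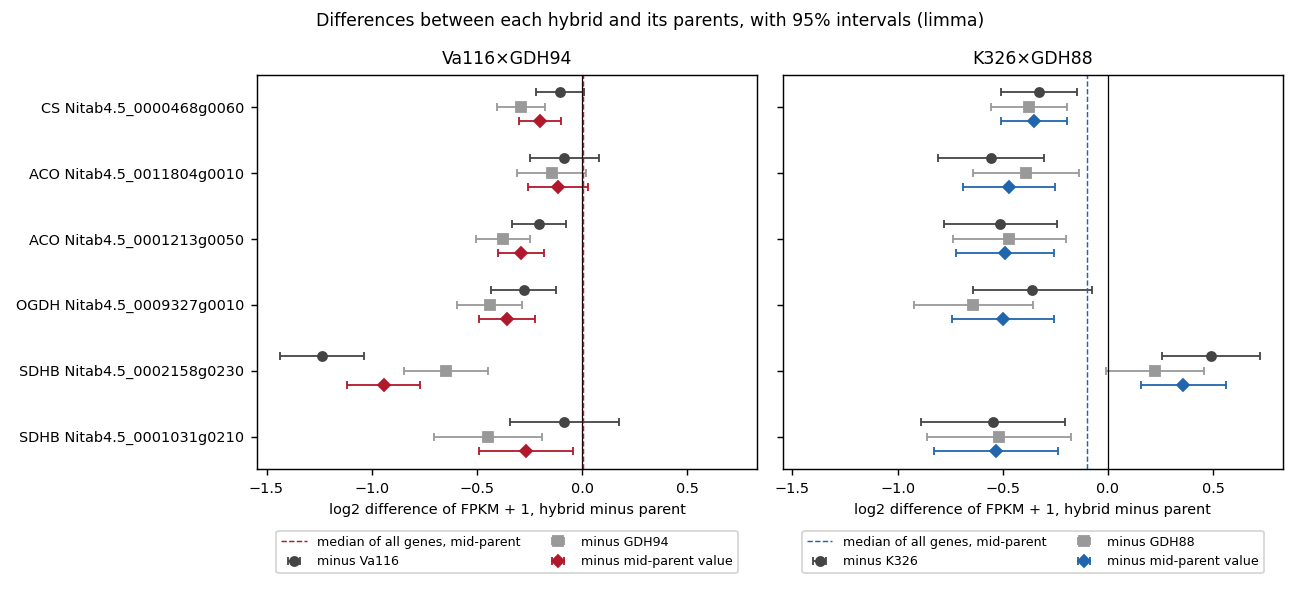
Log2 differences of FPKM + 1 (horizontal axis) between each hybrid and its first parent (circles), its second parent (squares) and the mid-parent value (diamonds) for the 6 genes, with 95% intervals from limma; the dashed line is the median of all genes for the mid-parent contrast. In K326×GDH88 5 genes lie left of 0 in all 3 contrasts and SDHB Nitab4.5_0002158g0230 lies right of it, while in Va116×GDH94, the hybrid used to choose the genes, all 6 lie left of 0.

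**Figure D3:**
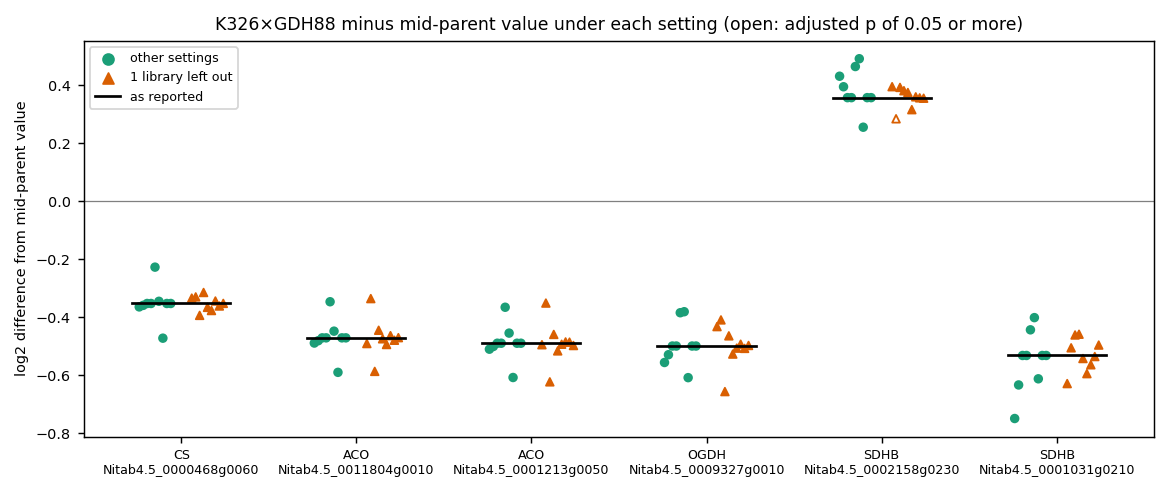
Log2 difference between K326×GDH88 and the mid-parent value (vertical axis) for each gene as reported (line), under the other settings (circles) and with 1 library left out (triangles), where open symbols mark an adjusted p of 0.05 or more. All symbols of a gene lie on one side of 0, and the only open symbol is that of SDHB Nitab4.5_0002158g0230 without hybrid replicate 2.

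Other genes also differed in this hybrid: the libraries of NtLhcb2 and NtLR25 lay above both parents, while NtLhcb1 lay above K326 and overlapped GDH88. NtLhcb1 had 14.4, 19.3 and 19.5 FPKM in K326×GDH88, against 9.36 to 10.8 FPKM in K326 and 15.9 to 17.7 FPKM in GDH88, and NtLhcb2 had 75.4 to 80.0 FPKM in the hybrid, against 36.9 to 41.0 FPKM in K326 and 58.3 to 62.4 FPKM in GDH88. NtLR25, listed with the qRT-PCR primers outside the photosynthesis and respiration genes, had 163 to 239 FPKM in K326×GDH88, against 126 to 147 FPKM in K326 and 144 to 152 FPKM in GDH88, and lay 0.44 above the mid-parent value on the log2 scale (adjusted p = 0.0109 from limma). The part of these shifts in the members' differences was not tested. In a mixed leaf sample, fewer cells of a type and less RNA per cell cannot be told apart.

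In Va116×GDH94 the mean of each of the 6 genes lay below both parental means, but the size differed widely between members. CS had 31.1, 28.5 and 28.5 FPKM in Va116×GDH94, against 30.4, 32.2 and 32.5 FPKM in Va116 and 35.5, 37.0 and 36.0 FPKM in GDH94. ACO Nitab4.5_0011804g0010 had 29.9, 26.5 and 24.0 FPKM in the hybrid, against 27.8, 27.9 and 29.4 FPKM in Va116 and 30.2, 29.9 and 28.8 FPKM in GDH94. ACO Nitab4.5_0001213g0050 had 24.7, 23.9 and 21.7 FPKM in the hybrid, against 27.4, 27.7 and 26.3 FPKM in Va116 and 30.9, 31.5 and 29.7 FPKM in GDH94. The hybrid overlapped Va116 for CS and both parents for the first ACO gene, whereas for the second ACO gene it overlapped neither.

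OGDH had 8.55, 7.91 and 7.04 FPKM in Va116×GDH94, against 9.65, 9.80 and 9.58 FPKM in Va116 and 11.1, 11.2 and 10.6 FPKM in GDH94. SDHB Nitab4.5_0002158g0230 had 3.88, 3.11 and 3.06 FPKM in the hybrid, against 8.96, 9.38 and 9.31 FPKM in Va116 and 5.65, 6.39 and 5.36 FPKM in GDH94. SDHB Nitab4.5_0001031g0210 had 2.45, 1.91 and 2.33 FPKM in the hybrid, against 2.83, 2.50 and 1.97 FPKM in Va116 and 3.52, 3.08 and 3.59 FPKM in GDH94. OGDH and Nitab4.5_0002158g0230 did not overlap either parent, and Nitab4.5_0001031g0210 overlapped Va116.

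Relative to the mid-parent value, the log2 difference in this hybrid was −0.94 for SDHB Nitab4.5_0002158g0230 (SE 0.08), −0.36 for OGDH (SE 0.06), −0.29 for ACO Nitab4.5_0001213g0050 (SE 0.05), −0.27 for SDHB Nitab4.5_0001031g0210 (SE 0.10), −0.20 for CS (SE 0.04) and −0.11 for ACO Nitab4.5_0011804g0010 (SE 0.06). The median of all genes was 0.01. Since the genes were selected for this contrast, the following counts describe the selection and nothing is read from them. In the limma fit 3 of the 6 genes were called below Va116 (11.7% of all genes), 5 below GDH94 (29%), 4 below the mid-parent value (21.4%) and 3 below both parents (7.89%). The 3 called below both parents were ACO Nitab4.5_0001213g0050, OGDH and SDHB Nitab4.5_0002158g0230, the same 3 whose hybrid libraries lay below all parent libraries (10.9% of all genes). The counts below Va116 and below both parents were each 5 without Va116×GDH94 replicate 1, 2 without Va116 replicate 1 or 2, and 1 when all 18 libraries shared a fit, and the count below the mid-parent value was 6 without Va116×GDH94 replicate 1. NtLhcb1 averaged 72.4 ± 2.55 FPKM in this hybrid, against 17.5 ± 0.30 FPKM in Va116 and 10.9 ± 1.24 FPKM in GDH94 (SD, n = 3 each), and its part in these values was not tested.

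The deviations of both hybrids were set against each other in a fit over all 18 libraries, again as a description. The deviation in Va116×GDH94 minus that in K326×GDH88 was −1.30 on the log2 scale for SDHB Nitab4.5_0002158g0230 and 0.36 for ACO Nitab4.5_0011804g0010. It was 0.14 to 0.27 for the other 4 members, while all genes had a median of 0.12. Of all genes, 9.66% were called lower and 22.6% higher in this contrast, which holds the deviation the genes were selected on, so nothing is read from the members' place among them.

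SDHB Nitab4.5_0002158g0230 also differed between Va116 and GDH94. It averaged 9.22 ± 0.23 FPKM in Va116 and 5.80 ± 0.53 FPKM in GDH94 (SD, n = 3 each), a log2 difference of 0.59 (limma adjusted p = 0.00067), and 3.36 ± 0.42 FPKM in K326. Va116 was higher than K326 by 1.23 on the log2 scale (limma over all 18 libraries, adjusted p = 7.99e-08), and the libraries of the 2 genotypes did not overlap. GDH94 was higher than GDH88, where the gene averaged 4.22 ± 0.04 FPKM (SD, n = 3), by 0.38 (adjusted p = 0.00686). The choice of the genes used the Va116 and GDH94 values and can favour genes high in them, so these p-values are not independent of it. Reads of all genotypes were aligned to the genome of K326, and whether sequence differences from K326 affected these values was not tested. In order of mean level the gene ran from Va116×GDH94 (3.35 FPKM) and K326, whose libraries overlapped, through GDH88, K326×GDH88 (5.12 FPKM) and GDH94 to Va116, and K326×GDH88 and GDH94 also overlapped.

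Differences between parents were smaller for the other 5 members in Va116 against GDH94, whereas in K326 against GDH88 that of OGDH was −0.28 and that of SDHB Nitab4.5_0002158g0230 −0.27. Values of Va116 and GDH94 entered the choice of the genes, so calls here with either parent are not independent of that choice. In Va116, CS, ACO Nitab4.5_0001213g0050 and SDHB Nitab4.5_0001031g0210 were called lower than in GDH94, by −0.19, −0.17 and −0.36 on the log2 scale (limma adjusted p = 0.0153, 0.0341 and 0.0288), beside a background of 31.4% of all genes called lower and 13% called higher. All genes had a median of −0.13 in this contrast, and none of the 3 calls held under median-ratio scaling or quantile normalization. With median-ratio scaling the differences were −0.04 for CS, −0.03 for the ACO gene and −0.25 for the SDHB gene (adjusted p = 0.493, 0.684 and 0.115). The count was 1 without any 1 of the 3 Va116 libraries, GDH94 replicate 1 or GDH94 replicate 2, and 2 without GDH94 replicate 3. In K326, 0 of 6 members were called lower than in GDH88 by limma, with 1 at an unadjusted p under 0.05 (SDHB Nitab4.5_0002158g0230, −0.27), beside 8.52% of all genes, and 0 were called higher, with 0 at an unadjusted p under 0.05, beside 6.56%. The log2 differences ran from −0.28 to 0.17. Between the crosses, only SDHB Nitab4.5_0002158g0230 was called higher in Va116 than K326 (18.1% of all genes), and this gene and CS, by 0.23 (adjusted p = 0.0157), were called higher in GDH94 than GDH88 (19.8% of all genes). All genes had a median of 0.12 in that contrast, and with median-ratio scaling the SDHB gene had 0.26 (limma adjusted p = 0.0506) and CS 0.09 (adjusted p = 0.204). CS also lost its call without GDH94 replicate 2 (adjusted p = 0.0585) or GDH88 replicate 2 (adjusted p = 0.0602).

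For both enzymes with 2 listed genes, the FPKM of the copies was summed in each library, because reads of similar copies could have been exchanged between them. Copies here are the 2 listed genes, whose sequences were not compared. Other genes of an enzyme were not looked for, so a sum is not a total for the enzyme. The ACO copies shared their sum almost evenly in all genotypes, with 49.1% to 53.5% from Nitab4.5_0011804g0010. Their sum was 39.8 ± 7.45 FPKM in K326×GDH88, against 57.9 ± 4.10 FPKM in K326 and 53.5 ± 0.80 FPKM in GDH88, and 50.2 ± 4.51 FPKM in Va116×GDH94, against 55.5 ± 0.29 FPKM in Va116 and 60.3 ± 1.60 FPKM in GDH94 (SD, n = 3 each). The 3 K326×GDH88 libraries, with sums of 32.2 to 47.1 FPKM, lay below all libraries of their parents.

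The sum of the SDHB copies in K326×GDH88 lay within the range of its parents, while their shares did not. It was 6.74 ± 0.55 FPKM in this hybrid, against 6.22 ± 1.12 FPKM in K326 and 6.97 ± 0.32 FPKM in GDH88 (SD, n = 3 each), and the libraries overlapped both parents. The share of Nitab4.5_0002158g0230 in that sum was 75.9% ± 4.55 in K326×GDH88, against 54.3% ± 3.99 in K326 and 60.7% ± 3.27 in GDH88, and the hybrid's lowest share of 70.7% lay above the highest of either parent, 63.8%. In Va116×GDH94 the sum was 5.58 ± 0.68 FPKM, against 11.7 ± 0.32 FPKM in Va116 and 9.20 ± 0.26 FPKM in GDH94, with no overlap. There the share of Nitab4.5_0002158g0230 was 60.01% ± 2.82, against 79.2% ± 3.27 in Va116 and 63.0% ± 3.98 in GDH94. In Va116×GDH94 both copies had lower means than in either parent, so the sum was lower too, whereas in K326×GDH88 the copies differed in direction. Whether reads were exchanged between the copies in K326×GDH88, rather than each copy changing, was not tested.

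**Figure D4:**
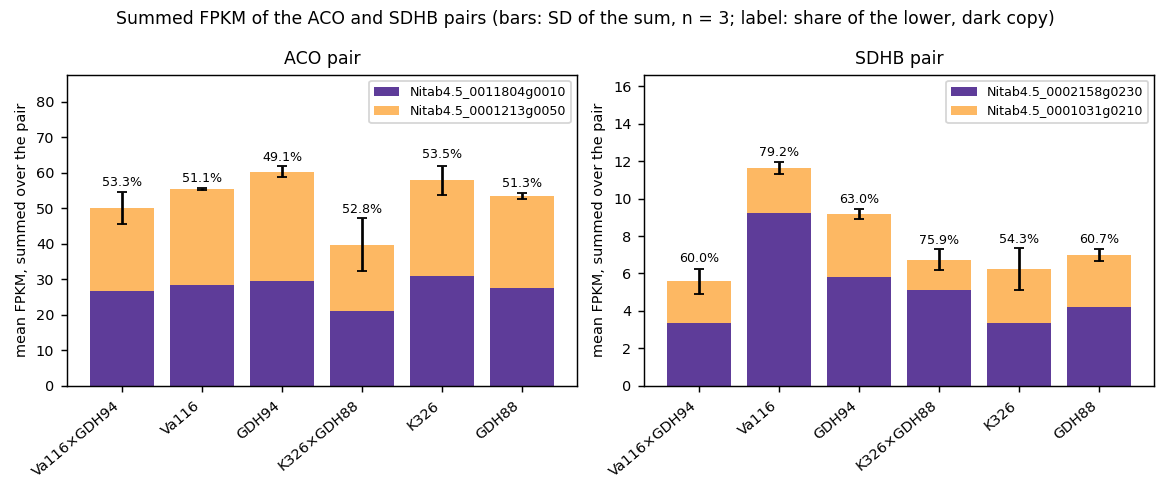
Mean FPKM of the 2 ACO genes and the 2 SDHB genes, stacked to their sum (vertical axes, from 0), in each genotype, with bars for the SD of the sum over 3 libraries and labels for the share of the copy drawn at the bottom. The ACO shares stay between 49.1% and 53.5%, while the share of SDHB Nitab4.5_0002158g0230 runs from 54.3% in K326 to 79.2% in Va116.

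Correlations across libraries differed between pairs of members, with and without the genotype means. Over the 18 libraries, which share the genotype differences described above, the 10 pairs among CS, the ACO genes, OGDH and SDHB Nitab4.5_0001031g0210 had Pearson r of 0.672 to 0.915 on the log2 scale, the highest for the ACO copies. The 5 pairs with SDHB Nitab4.5_0002158g0230 had r of −0.025 to 0.253. After the genotype means were removed, r was 0.604 to 0.903 for the pairs among CS, the ACO genes and OGDH. It was highest between ACO Nitab4.5_0001213g0050 and OGDH, and was 0.889 between the ACO copies. SDHB Nitab4.5_0001031g0210 had only −0.032 with OGDH, 0.119 and 0.07 with the ACO genes and 0.278 with CS. SDHB Nitab4.5_0002158g0230 had 0.483 with CS and −0.141 to 0.205 with the other members. For the ACO genes and OGDH, the SD was 18.0% to 22.8% of the mean in K326×GDH88. Replicate 2 was lowest and replicate 3 highest there for each. In Va116, GDH94 and GDH88 it was 1.16% to 3.09%, with Va116×GDH94 and K326 between. The part of single libraries in these r values was not tested, nor was r between other genes. The gene nearest to each member by r, among 36573 candidates, was Nitab4.5_0001831g0100 for OGDH (r = 0.985), Nitab4.5_0025200g0010 for ACO Nitab4.5_0001213g0050 (0.975), Nitab4.5_0000621g0140 for CS (0.973) and Nitab4.5_0000474g0010 for ACO Nitab4.5_0011804g0010 (0.958). For the SDHB genes it was Nitab4.5_0001737g0040, annotated with a protein kinase domain, for Nitab4.5_0002158g0230 (0.915), and Nitab4.5_0000032g0110 for Nitab4.5_0001031g0210 (0.904).

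The other 15 genes of the study's heat map, were also chosen by the study on Va116×GDH94. In K326×GDH88, 3 of them were called below the mid-parent value (23.8% of all genes), 2 above it (10.9%) and 10 neither, shares near those of all genes, and their median was −0.03. Of the 15, 2 were called below both parents (9.01% of all genes). Whether they differ from the 6 members was not tested. These 2 genes, Nitab4.5_0005769g0030 and Nitab4.5_0000895g0100, are labelled DLD, which the study's legend spells out with the name of SDHB. DLD is by usual naming dihydrolipoyl dehydrogenase, the component that the pyruvate and 2-oxoglutarate dehydrogenase complexes share, and which of these enzymes the genes encode was not tested. The first had 2.57, 2.61 and 3.02 FPKM in K326×GDH88, against 5.65, 5.15 and 4.35 FPKM in K326 and 5.93, 5.59 and 5.50 FPKM in GDH88, and fell by 0.77 below the mid-parent value (limma adjusted p = 0.000447). The second fell by 0.59 (limma adjusted p = 0.00095), and the third DLD gene, Nitab4.5_0006972g0010, differed by −0.17 (adjusted p = 0.183).

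The PDHA, DLAT, MDH and pckA genes differed from the mid-parent value by −0.24 to 0.35 in K326×GDH88. PDHA, the alpha subunit of pyruvate dehydrogenase, ranged from −0.24 for Nitab4.5_0015511g0010, which fell (limma adjusted p = 0.0151), to 0.22 for Nitab4.5_0008296g0010 (adjusted p = 0.057). DLAT, the acetyltransferase of the same complex, had −0.04 for Nitab4.5_0003407g0070 and 0.07 for Nitab4.5_0006099g0010 (limma adjusted p = 0.585 and 0.408). The 5 genes of MDH, malate dehydrogenase, ran from −0.03 for Nitab4.5_0000383g0300 to 0.22 for Nitab4.5_0009145g0010, neither of them called (limma adjusted p = 0.718 and 0.145), and 1 of the 5, Nitab4.5_0000044g0330, rose by 0.20 (adjusted p = 0.0303). The pckA gene Nitab4.5_0000377g0180, which encodes phosphoenolpyruvate carboxykinase, rose by 0.35 (limma adjusted p = 0.0215). In Va116×GDH94, where these genes were selected, 13 of the 15 were called below the mid-parent value (21.4% of all genes) and 8 below both parents (7.89%), and the median was −0.29.

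**Figure D5:**
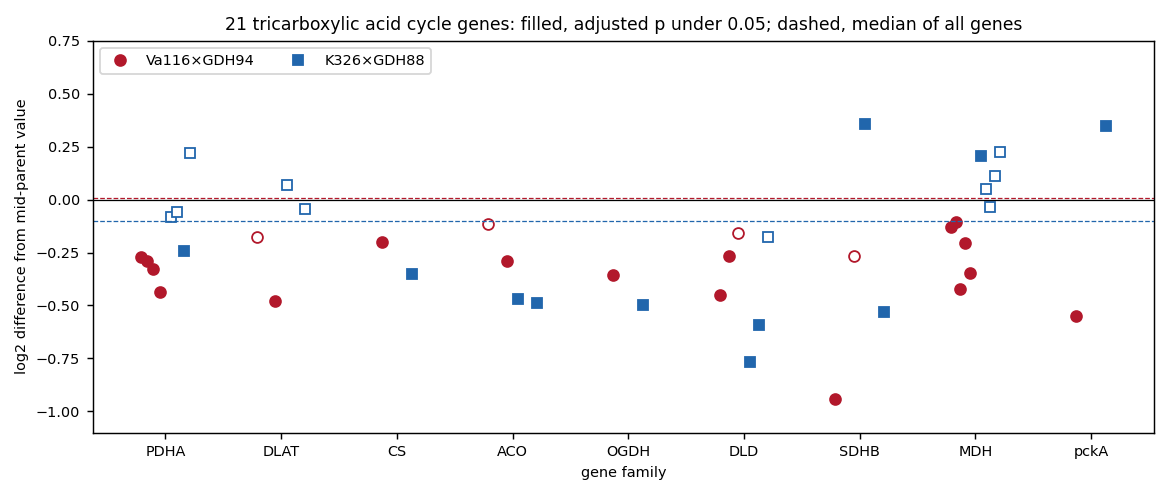
Log2 difference from the mid-parent value (vertical axis) of the 21 heat map genes by family (horizontal axis) in Va116×GDH94 (circles) and K326×GDH88 (squares), filled where the adjusted p was under 0.05 (for Va116×GDH94 a description, since the genes were selected on it), with the median of all genes dashed. In K326×GDH88 the CS, ACO and OGDH genes and 2 of the 3 DLD genes lie low, the SDHB copies lie on either side of 0, and the MDH genes lie between −0.03 and 0.22.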

How the data were processed

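Leaf RNA of 6 genotypes, 3 libraries each, was sequenced by the authors, who aligned reads to the K326 genome with HISAT2 and estimated expression with RSEM; StringTie is also named in the submitters' processing notes, and versions are not given in the sources used here. The deposited table holds 1 FPKM value per gene and library to 2 decimals. The unit was inferred from the values, which are not whole and sum to different totals, since no source names it. The reads behind a value are unknown, so precision was taken from the spread between replicates. Labels and methods give 3 biological replicates, from field plots.

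Values were tested as log2(FPKM + 1), computed from the deposited FPKM, in R 4.3.3 by limma 3.58.1, using moderated two-sided tests (lmFit, contrasts.fit and eBayes with a trend), with no covariate and no fold limit. A fold change on this scale understates the change of low genes. Each cross was fitted with its 9 libraries, and contrasts between crosses with all 18. A gene was tested where the mean of some fitted genotype reached 1 FPKM (36068, 35438 and 36573 genes), and all 6 members passed. P-values were Benjamini-Hochberg adjusted over all genes tested. The procedure was tested on simulated data. Figures and descriptions used Python 3.11.15 with pandas 2.3.3 and matplotlib 3.10.9.

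The members and lists were chosen with earlier results of these data known. Gene identifiers of the 4 families and of the other 15 heat map genes came from the study's heat map. Those of both ACO genes and of the other 15 genes were read from its picture, and although each is in the table, a misread digit is possible. Named genes were all members, the lowest and highest gene of each other family in K326×GDH88, the DLD genes in full and 1 further MDH gene (1 DLD gene and this MDH gene chosen after their values were seen), and the nearest gene to each member. Of the table's identifiers, 0 matched the RefSeq gene table, so no genome position is given. Alternatives were other pseudocounts, filters and scalings, the replicate number as a block, other sets of libraries in the fit, each library left out, and a 2-fold limit.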

Additional observations from a re-analysis of the deposited data

Results flagged for a closer look

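Nitab4.5_0002158g0230 and Nitab4.5_0011804g0010 deviated differently from the mid-parent value in the 2 hybrids in a limma fit over all 18 libraries, with the deviation in K326×GDH88 subtracted from that in Va116×GDH94. Because Va116×GDH94 was used to choose the genes, these differences are a description. For SDHB Nitab4.5_0002158g0230 the difference was −1.30 on the log2 scale (SE 0.12), with the gene below both parents in Va116×GDH94 and above both in K326×GDH88 in every library. It lay between −1.54 and −1.28 under the 8 other settings and between −1.39 and −1.23 with each of the 18 libraries left out. For ACO Nitab4.5_0011804g0010 the difference was 0.36 (SE 0.12), since the gene fell further in K326×GDH88. All genes had a median of 0.12 in this contrast, and the ACO value relative to it was 0.24. It lay between 0.23 and 0.38 under the other settings and between 0.22 and 0.47 with 1 library left out. The lowest value, 0.22, came without K326×GDH88 replicate 2. The ACO difference had a limma adjusted p under 0.05 as reported. It lost that call under 3 of the 8 other settings and in 9 of the 18 fits with a library left out. The SDHB difference kept its call in all of these.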

How the results depend on the processing

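The deviations of the 6 members from the mid-parent value in K326×GDH88 kept their direction under all settings and left-out libraries run, with 5 genes called below it in each except under a 2-fold limit. Counts against single parents depended more on the processing. With a 2-fold limit the counts were 0 below GDH88, K326, both parents and the mid-parent value in K326×GDH88, 0 below GDH94, both parents and the mid-parent value and 1 below Va116 in Va116×GDH94, and 0 lower in Va116 than GDH94. With all 18 libraries in the fit, 1 gene was below Va116 and 1 below both parents in Va116×GDH94. With only the compared genotypes in the fit, 2 were below K326 and 2 below both parents in K326×GDH88, and 1 was lower in K326 than GDH88. Median-ratio scaling gave 3 below GDH88 and 2 below both parents in K326×GDH88. It gave 0 lower in Va116 than GDH94, as did quantile normalization, against 3.

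With 1 library left out at a time, the counts ran from 2 to 5 below Va116, 5 to 6 below GDH94, 2 to 5 below both parents and 4 to 6 below the mid-parent value in Va116×GDH94, and from 1 to 4 lower in Va116 than GDH94. In K326×GDH88 they ran from 1 to 4 below K326, 3 to 5 below GDH88, 1 to 4 below both parents and 5 to 5 below the mid-parent value, and 0 were lower in K326 than GDH88 in each fit. Over the members' single values, 0 called ones reversed; of those left, 29 lost and 14 gained a call in 660 comparisons under the other settings, and 41 lost and 17 gained one in 864 with a library left out.

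Libraries share replicate numbers 1 to 3 in the labels. Deviations from the genotype means correlated between same-numbered libraries at −0.011 to 0.042 in Va116×GDH94 and −0.034 to 0.224 in K326×GDH88, with r over 0.1 in 1 of 9 pairs, so the numbers were not taken to pair the samples. The replicate block gave 3, 5 and 3 members below Va116, GDH94 and both parents in Va116×GDH94 and 4, 5 and 4 below K326, GDH88 and both parents in K326×GDH88, the counts without it.

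Read counts per gene are unknown, so the low level of SDHB Nitab4.5_0001031g0210 limits its precision to an extent the table does not give.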
